A study of Arabidopsis thaliana with 39 samples.

Results

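RNA from Arabidopsis thaliana seedlings labelled OE1 was compared after methylglyoxal (MG) and after mock treatment. This comparison used 6 of the 36 RNA libraries of the series, chosen by their labels alone. The labels give OE1 the genotype 35S::GLYI2 35S::GLYII4, line #1. Both transgenes are thus written behind the viral 35S promoter, which drives expression in most plant tissues, and the results rest on this one line. The 3 MG libraries came from seedlings given 200 µM MG for 12 h, and the 3 mock libraries from untreated seedlings. All were whole seedlings, 5 days old by the growth label, on half-strength MS solid medium. For comparison, the same MG and mock treatments were used from wild type (WT), from the glyI2 mutant and from OE5, a second line (#5) with the label 35S::GLYI2 35S::GLYII4. OE1 seedlings given 100 mM NaCl for 12 h are set beside some values.

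Methylglyoxal is a reactive dicarbonyl that forms as a by-product of glycolysis and modifies proteins and nucleic acids. The glyoxalase system removes it: glyoxalase I converts its glutathione adduct to S-lactoylglutathione, and glyoxalase II hydrolyses this to D-lactate and frees the glutathione. Proteins of the DJ-1 family can convert it without glutathione, which is called glyoxalase III activity. Plants also detoxify reactive compounds with glutathione transferases, glycosyltransferases, reductases and export carriers.

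Levels below are CPM, library-scaled counts, after TMM scaling, given for replicates 1, 2 and 3 in that order. Changes are log2 fold changes of MG over mock ± SE, with n = 3 libraries per group. Adjusted p-values come from edgeR's quasi-likelihood test over 20748 genes. A gene is said to have risen or fallen only where its adjusted p was under 0.05.

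The 6 libraries held between 21024878 and 22186733 counts. The first principal component of the 6 libraries held 60.0% of the variance and separated the groups, with MG libraries between −69.4 and −52.9 and mock libraries between 48.9 and 80.3. The second held 19.0% and set mock replicate 3 apart, at 60.2 against −53.2 and −22.3 for the other mock libraries. The morning clock gene CCA1 stood at 36.2, 29.3 and 24.7 CPM in MG libraries, against 34.1, 20.1 and 0.475 CPM in mock libraries. The light-harvesting gene LHCB2.2 stood at 2129, 1780 and 2413 CPM in MG libraries, against 2526, 2215 and 16.2 CPM in mock libraries. Mock replicate 3 was thus far below all 5 other libraries for both genes, and it was 1 of 7 replicate 3 libraries of the series low in CCA1. The seedling label was checked against tissue markers: the 4 shoot markers summed to between 44325 and 53197 CPM in MG libraries and between 22284 and 67380 CPM in mock libraries. Root markers were present too, though in whole seedlings fewer cells of a type and less RNA per cell cannot be told apart. The 4 root hair markers summed to 9.60 to 15.1 CPM in MG libraries, against 50.6 to 124 CPM in mock libraries. RHD2, which made up most of each MG sum, was not lower after MG. It stood at 12.7, 11.8 and 8.15 CPM in MG libraries, against 3.79, 4.06 and 10.1 CPM in mock libraries. The 4 endodermis markers summed to 10.5 to 24.8 CPM in MG libraries, against 58.2 to 72.7 CPM in mock libraries. Of the marker genes none was at 0 in any of the 6 libraries, though PRP3, COBL9, EXPA7 and ESB1 had values under 1 CPM.

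GLYII4, the glyoxalase II gene named in the transgene label, rose about 10-fold after MG. It stood at 234, 285 and 381 CPM in MG libraries, against 30.7, 27.0 and 35.2 CPM in mock libraries. The groups did not overlap, and replicate 3 was the highest in both (3.27 ± 0.27, adjusted p = 4.73e-10). In OE5 it rose too, at 283, 167 and 346 CPM after MG against 33.5, 37.2 and 25.5 CPM in mock. In WT it stood at 12.1, 9.76 and 13.2 CPM after MG against 10.1, 9.67 and 12.5 CPM in mock, and in glyI2 at 9.61, 12.5 and 11.7 CPM against 11.3, 10.1 and 14.1 CPM. The response in OE1 exceeded that in WT by 3.15 ± 0.36 (adjusted p = 2.82e-05) and that in glyI2 by 3.35 ± 0.36, adjusted p = 1.54e-06. After NaCl, which shares the OE1 mock libraries, GLYII4 stood at 22.2, 23.9 and 36.3 CPM, with both lower values below the OE1 mock libraries and the highest above them (−0.17 on the log2 scale, adjusted p = 0.803). The counts do not separate reads of the transgene from those of the native gene.

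GLYI2, the glyoxalase I gene named in the same label, did not pass the test. It stood at 28.7, 23.1 and 26.0 CPM in MG libraries, against 29.8, 20.4 and 34.0 CPM in mock libraries, with overlapping groups (−0.11 ± 0.22, adjusted p = 0.864). In libraries labelled OE1 it lay below WT, which had 61.4, 46.6 and 68.7 CPM after MG against 55.0, 58.2 and 70.6 CPM in mock. It lay above glyI2, which had 7.93, 7.97 and 7.97 CPM after MG against 9.47, 8.98 and 5.35 CPM in mock. In OE5 it was not above WT either, at 48.9, 53.3 and 44.7 CPM after MG against 44.8, 50.8 and 58.2 CPM in mock. GLYI2 transcript thus did not match the 35S::GLYI2 of either line's label, and OE1 and OE5 are used below as the names on the labels.

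DJ1E, a DJ-1 family homologue, was the other member of the glyoxalase list that rose. It stood at 124, 141 and 106 CPM in MG libraries, against 36.04, 52.2 and 39.7 CPM in mock libraries, with a gap between the groups (1.54 ± 0.17, adjusted p = 1.69e-07). Thus 2 of the 17 listed glyoxalase and D-lactate genes rose, against 5.85% of all genes, and the remaining 15 did not pass. Among these were the glyoxalase I homologues GLYI3 (0.21 ± 0.21, adjusted p = 0.716), GLYI6 (0.08 ± 0.13, adjusted p = 0.84), GLYI7 (−0.31 ± 0.55, adjusted p = 0.855) and GLYI8 (0.58 ± 0.58, adjusted p = 0.701). The glyoxalase II family genes GLX2-2 (0.01 ± 0.18, adjusted p = 0.993), GLX2-4 (0.12 ± 0.15, adjusted p = 0.766), GLX2-5 (0.05 ± 0.17, adjusted p = 0.928) and GLY3 (0.29 ± 0.22, adjusted p = 0.567) did not pass. Nor did the DJ-1 homologues DJ1A (0.40 ± 0.14, adjusted p = 0.0748), DJ1B (−0.02 ± 0.13, adjusted p = 0.969), DJ1C (−0.38 ± 0.32, adjusted p = 0.618), DJ1D (0.01 ± 0.24, adjusted p = 0.995) and DJ1F (0.10 ± 0.36, adjusted p = 0.935), or DLDH, the D-lactate dehydrogenase gene (−0.07 ± 0.17, adjusted p = 0.896). GLYI4, another glyoxalase I homologue, was not in the list and was named after its value was seen. It stood at 9.03, 10.5 and 8.61 CPM in MG libraries, against 30.4, 18.5 and 19.9 CPM in mock libraries, without overlap, and fell (−1.29 ± 0.40, adjusted p = 0.0392). Its call was lost without mock replicate 1 (adjusted p = 0.172) or 3 (0.0565) or MG replicate 1 (0.121), 2 (0.0812) or 3 (0.139).

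DJ1A passed without MG replicate 3 (adjusted p = 0.0452) and in DESeq2 (adjusted p = 0.0173). By the authors' FPKM, which allows levels of different genes to be compared per length, DJ1A had the highest level of the listed genes after MG (351 ± 67.2 FPKM, against 284 ± 82.8 FPKM in mock, SD, n = 3). GLYII4 came second after MG, at 145 ± 25.3 FPKM, against 16.4 ± 5.53 FPKM in mock. GLYI6 (125 ± 3.94 FPKM after MG), GLYI3 (119 ± 30.7 FPKM) and GLX2-2 (101 ± 1.07 FPKM) followed, and their order relative to GLYII4 is within the spread of the libraries.

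**Figure D1:**
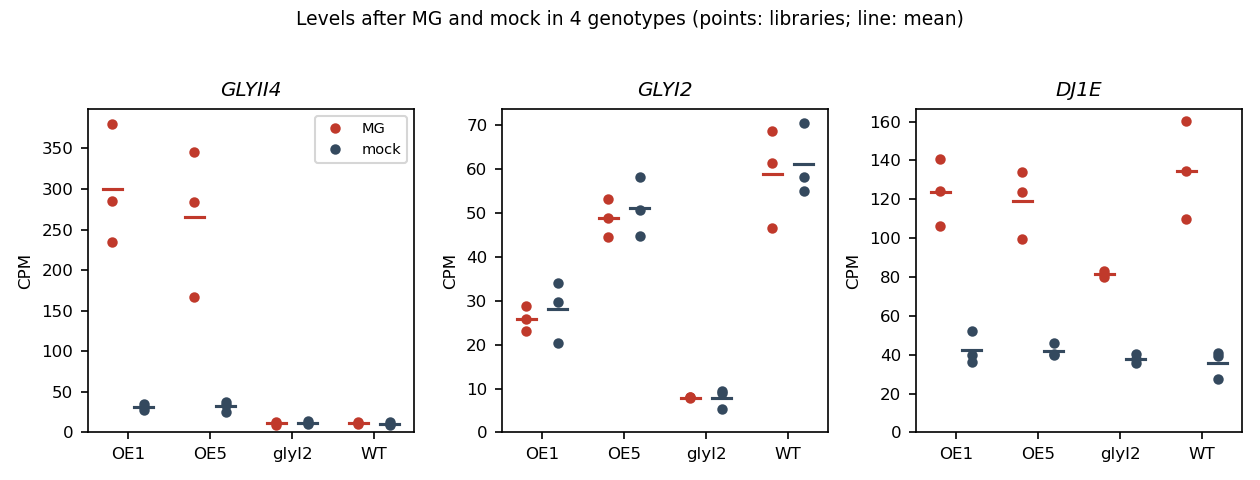
CPM (linear axes from 0) of GLYII4, GLYI2 and DJ1E after MG (red) and mock (dark blue) in OE1, OE5, glyI2 and WT, with 1 point per library and a line at the mean of 3. GLYII4 after MG lies between 167 and 381 CPM in OE1 and OE5 and between 9.61 and 13.2 CPM in glyI2 and WT, while DJ1E is higher after MG in all 4 genotypes.

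Across all genes, 2031 of 20748 (9.79%) changed after MG in OE1. Of these 1214 (5.85% of those tested) rose and 817 (3.94%) fell, and 1601 changed at least 2-fold. The values of the 3 MG and the 3 mock libraries did not overlap for 5023 genes (24.2%), among them 2009 of the called genes. The median log2 fold change over all genes was −0.03, and −0.05 with RLE scaling. Without mock replicate 3 the count was 1616 genes, of which 1520 were among the 2031.

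The genes raised most included enzymes of indolic defence compounds, a mitochondrial oxidase and several loci without a name. AOX1D encodes an alternative oxidase, which passes electrons to oxygen without pumping protons. It stood at 26.7, 24.5 and 38.0 CPM in MG libraries, against 0, 0.0589 and 0 CPM in mock libraries, where a single read was counted in all. The ratio was 1772 (95% interval 318 to 70037, counting error only), and every MG library was above every mock library. CYP71A12, a cytochrome P450 of the camalexin and indole-carbonyl nitrile pathways, stood at 316, 385 and 224 CPM in MG libraries, against 0.780, 1.00 and 0.436 CPM in mock libraries (8.73 ± 0.69, adjusted p = 3.20e-10). The locus AT1G26380 stood at 303, 333 and 445 CPM in MG libraries, against 1.67, 0.824 and 0.436 CPM in mock libraries (8.56 ± 0.56, adjusted p = 7.07e-12), and AT1G26390 at 103, 103 and 79.3 CPM, against 0.724, 0.353 and 0 CPM (8.14 ± 1.00, adjusted p = 5.96e-07). The naming rule required that the groups not overlap, and in each of these genes every mock library was far below every MG library.

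Of the other genes with the largest rises, 3 had no read in any mock library. AT1G34050 was at least 56.6-fold higher in MG libraries, sks8 (annotated as SKU5 similar 8) at least 26.1-fold and AT2G18190 at least 20.0-fold, with 3 counts over the mock group as the floor. Their counts summed over the 3 MG libraries were low, at 156, 72 and 55. AT2G31345 had 1 mock count in all (ratio 580, 95% interval 104 to 22959), AT5G57510 had 2 (ratio 311, 85.8 to 2577) and AT1G26240 had 3 (ratio 217, 73.9 to 1055), and these intervals cover counting error only. AT4G28460 (7.74 ± 0.66, adjusted p = 1.02e-09), AT5G24640 (7.51 ± 0.79, adjusted p = 4.57e-08), AT4G16820, annotated as DAD1-like lipase 1 (7.47 ± 0.82, adjusted p = 1.05e-07), and BGLU28, a beta glucosidase gene (7.19 ± 1.06, adjusted p = 1.10e-05), rose too. Each of the 15 genes with the largest rises by the naming rule kept its call under every alternative run.

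**Figure D2:**
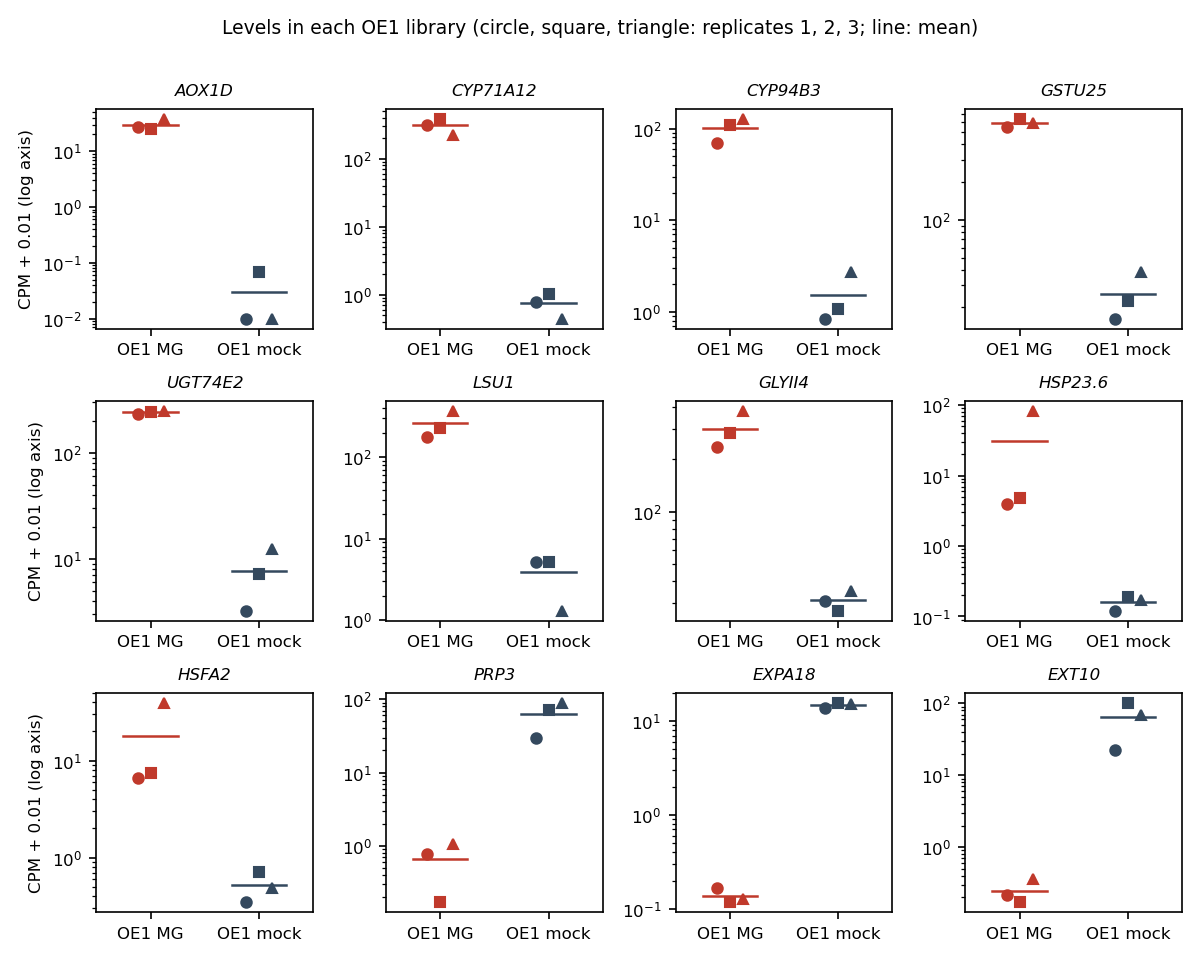
CPM + 0.01 on a log axis for 12 genes in the 3 OE1 MG libraries (red, left) and the 3 OE1 mock libraries (dark blue, right). Circles, squares and triangles are replicates 1, 2 and 3 and the line is the mean. No gene shows overlap, and replicate 3 stands above the other MG libraries for HSP23.6 (83.5 CPM against 3.97 and 4.86 CPM) and HSFA2 (39.6 CPM against 6.66 and 7.48 CPM).

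Many of the listed genes for the detoxification of carbonyls and foreign compounds rose. Of 26 tested, 14 rose and none fell, against 5.85% of all genes raised, and the list's median log2 fold change was 1.23. The count stayed between 14 and 16 when any single library was left out. The list does not cover whole gene families. Outside it, the glutathione transferase genes GSTU14 (−5.31), GSTU28 (−2.94), GSTF14 (−2.33) and GSTU26 (−1.70) fell. Other glutathione transferase genes rose, GSTU11 (4.83) and GSTU12 (3.33) among them. GSTU25, a tau class glutathione transferase gene, stood at 549, 641 and 590.1 CPM in MG libraries, against 16.3, 22.4 and 38.0 CPM in mock libraries (4.53 ± 0.35, adjusted p = 2.00e-10). GSTU24, of the same class, stood at 330.4, 405 and 381 CPM in MG libraries, against 25.4, 24.97 and 29.1 CPM in mock libraries (3.81 ± 0.29, adjusted p = 1.55e-10). The MG values of both lay within a narrow band far above the mock values. CYP81D8, a cytochrome P450 gene induced by many electrophiles, stood at 194, 204 and 310.3 CPM in MG libraries, against 6.07, 6.95 and 5.78 CPM in mock libraries (5.24 ± 0.38, adjusted p = 5.74e-11). UGT74E2, which encodes a glucosyltransferase of indole-butyric acid, stood at 234, 243 and 251 CPM in MG libraries, against 3.23, 7.12 and 12.5 CPM in mock libraries (4.98 ± 0.38, adjusted p = 1.51e-10). The mock values of UGT74E2 spread more widely than its MG values, but no library overlapped.

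Among the other detoxification genes, the phi class transferases GSTF7 (3.06 ± 0.27, adjusted p = 1.45e-09) and GSTF6 (2.05 ± 0.32, adjusted p = 1.97e-05) rose. So did the glycosyltransferases UGT73B4 (2.58 ± 0.27, adjusted p = 4.25e-08) and UGT73B5 (2.44 ± 0.27, adjusted p = 1.42e-07) and the export carriers of the MATE family DTX4 (6.98 ± 0.64, adjusted p = 3.87e-09) and DTX3 (4.50 ± 0.57, adjusted p = 9.61e-07). The oxophytodienoate reductases OPR1 (2.11 ± 0.28, adjusted p = 1.77e-06) and OPR2 (1.66 ± 0.19, adjusted p = 2.96e-07) and the alkenal reductase AER (0.95 ± 0.19, adjusted p = 0.000486) rose by less. Of the genes for enzymes that oxidise or reduce aldehydes and carbonyls directly, the aldehyde dehydrogenase gene ALDH3H1 rose (0.56 ± 0.12, adjusted p = 0.000866), which did not pass when just the 2 groups were fitted (adjusted p = 0.0690). ALDH7B4 (0.64 ± 0.22, adjusted p = 0.066), AKR4C8 (0.44 ± 0.15, adjusted p = 0.071), AKR4C9 (1.36 ± 0.63, adjusted p = 0.237), AKR4C10 (−0.03 ± 0.21, adjusted p = 0.973), AKR4C11 (−0.14 ± 0.19, adjusted p = 0.795), ALDH3I1 (−0.05 ± 0.25, adjusted p = 0.953) and ALDH2B7 (−0.33 ± 0.19, adjusted p = 0.416) did not pass.

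Genes of alternative respiration and mitochondrial stress rose nearly throughout the list. Of 11 tested 10 rose (median 2.12), against 5.85% of all genes, and the count was 8 to 9 with any single library left out. AOX1A, the main stress-induced alternative oxidase gene, stood at 247, 266 and 305 CPM in MG libraries, against 31.9, 27.9 and 22.5 CPM in mock libraries (3.31 ± 0.27, adjusted p = 5.44e-10). The alternative NAD(P)H dehydrogenase genes NDB2 (1.89 ± 0.25, adjusted p = 1.77e-06), NDA2 (1.74 ± 0.22, adjusted p = 9.28e-07) and NDB4 (3.64 ± 0.46, adjusted p = 8.86e-07) rose with it. OM66, an outer mitochondrial membrane AAA ATPase gene, stood at 27.2, 21.5 and 24.3 CPM in MG libraries, against 1.45, 2.18 and 3.88 CPM in mock libraries (3.26 ± 0.47, adjusted p = 8.88e-06). ANAC013, a transcription factor of the mitochondrial retrograde response, stood at 27.1, 23.9 and 23.9 CPM in MG libraries, against 5.96, 4.30 and 6.93 CPM in mock libraries (2.12 ± 0.25, adjusted p = 4.22e-07). UPOX, a mitochondrial protein gene induced by oxidative stress, also rose (2.34 ± 0.46, adjusted p = 0.000521). The smaller rises of ANAC017 (0.36 ± 0.11, adjusted p = 0.025) and UCP5 (0.86 ± 0.26, adjusted p = 0.0325) were lost without mock replicate 1 (adjusted p = 0.0795 and 0.119), mock replicate 3 (0.0848 and 0.0974) or MG replicate 2 (0.0696 and 0.0975). ANAC017 was also lost without MG replicate 1 (0.118), and UCP5 without mock replicate 2 (0.0517) or MG replicate 3 (0.138). NDA1 stood at 95.4, 123 and 118 CPM in MG libraries, against 105, 104 and 8.12 CPM in mock libraries, where replicate 3 was low, and did not pass (0.63 ± 0.93, adjusted p = 0.821).

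Sulfur assimilation genes rose. Of 11 genes for sulfate and glutathione 6 rose and none fell (median 1.23), against 5.85% of all genes raised, a count that held with each library left out. LSU1, a small protein gene induced by low sulfur, stood at 179, 230.4 and 372 CPM in MG libraries, against 5.12, 5.18 and 1.31 CPM in mock libraries (6.09 ± 0.77, adjusted p = 1.05e-06). SDI1, a sulfur deficiency-induced repressor of glucosinolate synthesis, stood at 27.2, 22.2 and 21.4 CPM in MG libraries, against 2.01, 2.53 and 1.07 CPM in mock libraries (3.68 ± 0.55, adjusted p = 1.40e-05). Neither gene's groups overlapped. The adenylylsulfate reductases, which commit sulfate to reduction, rose: APR1 (1.93 ± 0.23, adjusted p = 5.14e-07), APR3 (1.89 ± 0.20, adjusted p = 5.88e-08) and APR2 (1.23 ± 0.28, adjusted p = 0.00302). The root sulfate transporter gene SULTR1;2 rose as well (1.98 ± 0.33, adjusted p = 5.39e-05). GSH1 (−0.05 ± 0.14, adjusted p = 0.911) and GSH2 (−0.07 ± 0.22, adjusted p = 0.93), which encode the 2 enzymes of glutathione synthesis, did not pass. Of 13 antioxidant genes 1 rose, the dehydroascorbate reductase gene DHAR2 (1.87 ± 0.38, adjusted p = 0.000795), and 1 fell, the monodehydroascorbate reductase gene MDAR3 (−1.34 ± 0.31, adjusted p = 0.00346). Single calls among 13 genes are near the 5.85% of all genes raised and 3.94% lowered. Without mock replicate 3, 3 of these 13 rose and 1 fell.

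Of 15 salicylic acid and defence genes 4 rose and none fell (median 0.45), against 5.85% of all genes raised. Of the 4, 3 make indolic phytoalexins. Besides CYP71A12, PAD3, the last enzyme of camalexin synthesis, stood at 101, 102 and 91.1 CPM in MG libraries, against 4.07, 5.42 and 3.37 CPM in mock libraries (4.52 ± 0.33, adjusted p = 5.74e-11). CYP82C2, which hydroxylates indole-carbonyl nitrile, stood at 10.2, 10.4 and 4.77 CPM in MG libraries, against 0.223, 0.0589 and 0 CPM in mock libraries (6.55 ± 0.83, adjusted p = 2.36e-06). CBP60G, a regulator of salicylic acid synthesis, rose (2.63 ± 0.31, adjusted p = 2.43e-07). The salicylic acid synthesis and response genes ICS1 (0.41 ± 0.29, adjusted p = 0.53), EDS5 (−0.53 ± 0.23, adjusted p = 0.193), PR2 (1.28 ± 0.94, adjusted p = 0.56) and PR5 (0.34 ± 0.57, adjusted p = 0.841) did not pass. Of 17 glucosinolate genes CYP81F2, which modifies indole glucosinolates, rose (3.14 ± 0.38, adjusted p = 5.22e-07). CYP79B3, which starts indolic synthesis from tryptophan, fell (−0.91 ± 0.23, adjusted p = 0.00804), a call lost without mock replicate 1 (adjusted p = 0.0555). Single calls among 17 genes are near the 5.85% of all genes raised and 3.94% lowered.

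Of 16 jasmonate genes 1 rose, a share near the 5.85% of all genes. CYP94B3, which inactivates jasmonoyl-isoleucine by hydroxylation, stood at 69.5, 108 and 128 CPM in MG libraries, against 0.836, 1.06 and 2.69 CPM in mock libraries (6.01 ± 0.46, adjusted p = 1.51e-10). All its MG values lay far above all its mock values. The jasmonate synthesis and response genes AOS (0.95 ± 0.44, adjusted p = 0.231), LOX2 (0.55 ± 0.52, adjusted p = 0.682), LOX3 (0.04 ± 0.32, adjusted p = 0.978), OPR3 (0.08 ± 0.21, adjusted p = 0.898), JAZ10 (−0.42 ± 0.44, adjusted p = 0.72) and VSP2 (1.62 ± 0.83, adjusted p = 0.305) did not pass.

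Heat shock genes formed the list with the highest median, and their size rested in part on 1 library. Against 5.85% of all genes, 18 of 24 tested rose and none fell (median 2.83, and 2.74 with HSP21, which had no mock read, at its lower bound). HSFA2, a heat stress factor that sustains the response, stood at 6.66, 7.48 and 39.6 CPM in MG libraries, against 0.334, 0.707 and 0.475 CPM in mock libraries (5.14 ± 0.68, adjusted p = 2.08e-06). HSP23.6, a mitochondrial small heat shock protein gene, stood at 3.97, 4.86 and 83.5 CPM in MG libraries, against 0.111, 0.177 and 0.158 CPM in mock libraries (7.63 ± 1.33, adjusted p = 0.000112). In both, MG replicate 3 was several times above MG replicates 1 and 2, and these were still above every mock library. The list's mean log2 CPM lay 1.85, 1.86 and 3.82 above the mock mean in MG replicates 1, 2 and 3. Without MG replicate 3, 12 of the 24 rose (median 1.94), and without mock replicate 1, 2 or 3 the counts were 16, 15 and 15.

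Of the larger chaperones, HSP101 stood at 35.0, 25.5 and 130.0 CPM in MG libraries, against 9.25, 10.9 and 6.46 CPM in mock libraries (2.84 ± 0.54, adjusted p = 0.000374), and HSP90.1 at 128, 81.3 and 279 CPM, against 19.6, 11.4 and 8.92 CPM (3.61 ± 0.57, adjusted p = 2.74e-05). HSP70-4 stood at 351, 359.7 and 1107 CPM in MG libraries, against 96.6, 145 and 47.1 CPM in mock libraries (2.66 ± 0.56, adjusted p = 0.00124). Again replicate 3 was the highest MG library for each. DREB2A, an activator of heat and drought genes (3.56 ± 0.47, adjusted p = 2.11e-06), FES1A, an HSP70 exchange factor (2.83 ± 0.38, adjusted p = 2.70e-06), and the cytosolic small heat shock protein genes HSP17.8 (4.61 ± 0.70, adjusted p = 1.54e-05), HSP17.6A (5.93 ± 0.91, adjusted p = 1.95e-05), HSP17.6C (5.48 ± 0.96, adjusted p = 0.00012) and HSP17.4 (5.23 ± 1.00, adjusted p = 0.000384) rose. The calls of HSFB2B (adjusted p = 0.0660), HSP17.6B (0.204), HSP17.6II (0.0506), HSP70B (0.648), HSFB2A (0.288) and ROF2 (0.557) were lost without MG replicate 3. HSP70B and ROF2 were also lost without mock replicate 1 (0.0584 and 0.0887), 2 (0.0578 and 0.160) or 3 (0.0526 and 0.114), and HSFB2A without mock replicate 2 (0.101) or 3 (0.0868). HSP22 (1.33 ± 1.01, adjusted p = 0.571), HSP18.2 (0.30 ± 0.43, adjusted p = 0.814) and HSFA7A (−0.20 ± 0.58, adjusted p = 0.919) did not pass.

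Of 9 unfolded protein response genes 3 rose, against 5.85% of all genes. BZIP60, a membrane-linked factor activated by splicing in the endoplasmic reticulum stress response, stood at 106, 126 and 177 CPM in MG libraries, against 42.8, 40.5 and 32.5 CPM in mock libraries (1.82 ± 0.28, adjusted p = 2.19e-05). ERDJ3A (1.97 ± 0.40, adjusted p = 0.000783) and ANAC062 (0.81 ± 0.21, adjusted p = 0.00876) rose, the last a call lost without mock replicate 1 (adjusted p = 0.0669), mock replicate 2 (0.0624) or MG replicate 3 (0.0686). The chaperone genes of the endoplasmic reticulum lumen BIP1 (0.05 ± 0.22, adjusted p = 0.952), BIP2 (−0.20 ± 0.22, adjusted p = 0.739), PDI6 (−0.19 ± 0.32, adjusted p = 0.843) and CRT1 (−0.41 ± 0.16, adjusted p = 0.116) did not pass.

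**Figure D3:**
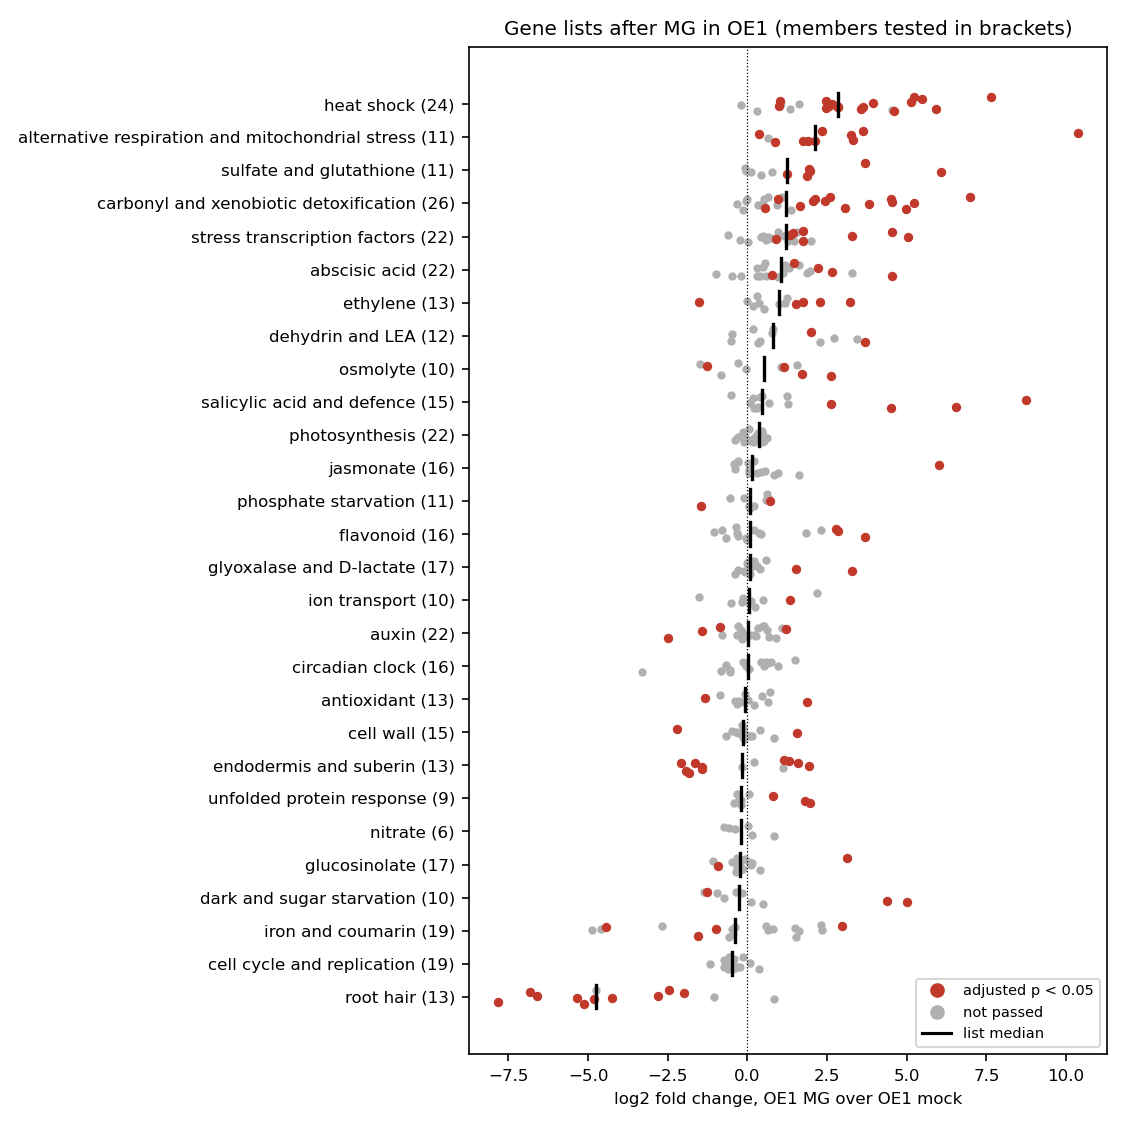
Log2 fold change of MG over mock in OE1 for each tested member of 28 gene lists, with members at adjusted p under 0.05 in red, the others in grey and the list median as a black bar. Heat shock, alternative respiration, sulfate and detoxification genes lie to the right and root hair genes to the left, with a median of −4.75. Members with no read in one group (HSP21, RSL1 and RSL2) are drawn at fitted values that are no bound.

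Stress transcription factors rose in 8 of 22 cases (median 1.21), against 5.85% of all genes. ZAT12, a zinc finger factor of oxidative and light stress, stood at 141, 206 and 319 CPM in MG libraries, against 10.1, 8.83 and 9.75 CPM in mock libraries (4.53 ± 0.37, adjusted p = 4.73e-10). DREB2C, a heat-inducible relative of DREB2A, stood at 20.6, 17.7 and 27.5 CPM in MG libraries, against 0.780, 0.589 and 0.634 CPM in mock libraries (5.03 ± 0.46, adjusted p = 3.27e-09). WRKY75 (3.298 ± 0.50, adjusted p = 1.59e-05), ANAC032 (1.73 ± 0.26, adjusted p = 1.76e-05), AZF2 (1.75 ± 0.33, adjusted p = 0.000273) and TGA10 (1.35 ± 0.20, adjusted p = 1.23e-05) rose too. The calls of ZAT6 (1.43 ± 0.41, adjusted p = 0.0221) and ATAF1 (0.90 ± 0.28, adjusted p = 0.0319) were lost without mock replicate 1 (adjusted p = 0.0882 and 0.105), mock replicate 2 (0.129 and 0.0849), MG replicate 2 (0.0679 and 0.122) or MG replicate 3 (0.110 and 0.133), and that of ATAF1 also without mock replicate 3 (0.0728). WRKY33 stood at 41.0, 34.9 and 49.9 CPM in MG libraries, against 6.68, 4.30 and 41.1 CPM in mock libraries, and its mock replicate 3 lay within the MG range (1.26 ± 0.66, adjusted p = 0.315). Without mock replicate 3, 10 of the 22 rose, and without all 7 libraries low in CCA1 12 did.

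Of 13 ethylene genes 4 rose and 1 fell (median 1.01), against 5.85% of all genes raised and 3.94% lowered. ACS2, which makes the ethylene precursor, stood at 5.01, 5.56 and 9.54 CPM in MG libraries, against 0.501, 0.530 and 1.07 CPM in mock libraries (3.204 ± 0.43, adjusted p = 2.60e-06) and kept its call with each library left out. The second synthase gene ACS6 (1.76 ± 0.44, adjusted p = 0.0073) and the response factor ERF6 (2.27 ± 0.57, adjusted p = 0.00742) lost theirs without mock replicate 1 (adjusted p = 0.0550 and 0.0517) or 2 (0.0662 and 0.0549), and ERF6 without MG replicate 3 (0.0806). ERF5 (1.53 ± 0.46, adjusted p = 0.0301) lost it without mock replicate 1 (0.123), mock replicate 2 (0.142) or MG replicate 3 (0.230). The count of genes that rose was 1 without mock replicate 1 or 2 and 2 without MG replicate 3. The oxidase gene ACO1, the one that fell (−1.53 ± 0.45, adjusted p = 0.0229), lost its call without mock replicate 3 (0.183), MG replicate 2 (0.0737) or MG replicate 3 (0.140).

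Abscisic acid genes rose in 5 of 22 cases (median 1.05), against 5.85% of all genes, and MG replicate 2 was often well above the other MG libraries. CYP707A1, which breaks abscisic acid down, stood at 17.5, 20.6 and 13.9 CPM in MG libraries, against 3.40, 3.71 and 4.16 CPM in mock libraries (2.203 ± 0.31, adjusted p = 4.79e-06). The phosphatase genes of abscisic acid signalling ABI2 (1.46 ± 0.29, adjusted p = 0.000645) and HAI2 (4.55 ± 0.89, adjusted p = 0.000522) also kept their calls in every alternative. HAI1 stood at 4.54, 31.2 and 8.09 CPM in MG libraries, against 2.395, 2.65 and 1.98 CPM in mock libraries (2.65 ± 0.76, adjusted p = 0.0204). Its call and that of ABI1 (0.77 ± 0.24, adjusted p = 0.0311) were lost without mock replicate 1 (adjusted p = 0.0661 and 0.105), 2 (0.0629 and 0.0757) or 3 (0.0953 and 0.0732) or MG replicate 2 (0.367 and 0.199), and that of ABI1 without MG replicate 3 (0.0561). The count was 3 without any one mock library or without MG replicate 2, and 6 without MG replicate 1 or 3. NCED3, the rate-limiting synthesis gene, stood at 6.76, 29.1 and 7.92 CPM in MG libraries, against 3.34, 4.89 and 2.93 CPM in mock libraries, and did not pass (1.98 ± 0.66, adjusted p = 0.0567).

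The same MG library stood out for protective proteins and pigments. With all libraries 2 of 12 dehydrin and LEA genes and 3 of 16 flavonoid genes rose, against 5.85% of all genes. Dehydrin and LEA genes lay 0.38, 2.17 and −0.07 log2 units from the mock mean in MG replicates 1, 2 and 3, and flavonoid genes 0.23, 1.39 and −0.19. LTI30, a dehydrin gene, stood at 60.7, 71.1 and 78.3 CPM in MG libraries, against 21.2, 9.13 and 22.1 CPM in mock libraries and rose (1.998 ± 0.32, adjusted p = 4.18e-05). LEA4-5 stood at 1.55, 19.2 and 1.05 CPM in MG libraries, against 0.724, 0.648 and 0.357 CPM in mock libraries, and its call (3.69 ± 1.11, adjusted p = 0.0285) was lost without mock replicate 1 (0.0731), 2 (0.0877) or 3 (0.135) or MG replicate 2 (0.743). The other 10 of 12 dehydrin and LEA genes did not pass, RAB18 (2.71 ± 1.26, adjusted p = 0.232) and RD29A (0.78 ± 0.57, adjusted p = 0.554) among them. Of 16 flavonoid genes 3 rose, the anthocyanin regulator gene PAP1 (3.69 ± 0.89, adjusted p = 0.00477) and the late pathway genes DFR (2.78 ± 0.82, adjusted p = 0.0264) and LDOX (2.84 ± 0.84, adjusted p = 0.0271). Without MG replicate 2 none of these rose (adjusted p = 0.0769, 0.193 and 0.221), and DFR and LDOX were also lost without mock replicate 1 (0.0988 and 0.106) or 3 (0.105 and 0.131), DFR without mock replicate 2 as well (0.0633). CHS, the first step of the pathway, did not pass (−0.67 ± 0.61, adjusted p = 0.661).

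Of 10 osmolyte genes 3 rose and 1 fell, against 5.85% of all genes raised and 3.94% lowered. The proline transporter gene PROT2 rose (1.15 ± 0.18, adjusted p = 3.70e-05). P5CS1, which makes proline, stood at 101, 230.0 and 57.0 CPM in MG libraries, against 23.62, 45.9 and 47.5 CPM in mock libraries, and its call (1.73 ± 0.55, adjusted p = 0.0437) was lost without any single library other than MG replicate 3, with adjusted p between 0.0512 and 0.419 (highest without MG replicate 2). GOLS2, a galactinol synthase gene (2.63 ± 0.74, adjusted p = 0.0176), lost its call without mock replicate 1 (0.0853) or 2 (0.0528) or MG replicate 2 (0.112). RS6, a raffinose synthase gene also listed among dark-induced genes as DIN10, fell (−1.26 ± 0.32, adjusted p = 0.00681), a call lost without mock replicate 3 (0.0844) or MG replicate 2 (0.0648). The dark-induced beta glucosidase gene DIN2 rose (4.99 ± 0.72, adjusted p = 7.81e-06) and so did the sugar exporter gene SWEET15 (4.38 ± 1.37, adjusted p = 0.0384), whose value rested on MG replicate 2 (9.55, 88.4 and 6.34 CPM in MG libraries, against 1.17, 3.71 and 0.317 CPM in mock libraries) and was lost without it (0.467) or without mock replicate 1 (0.127) or 3 (0.174). They were 2 of 10 listed dark and sugar starvation genes that rose, with RS6 the one that fell, beside the same shares of all genes.

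**Figure D4:**
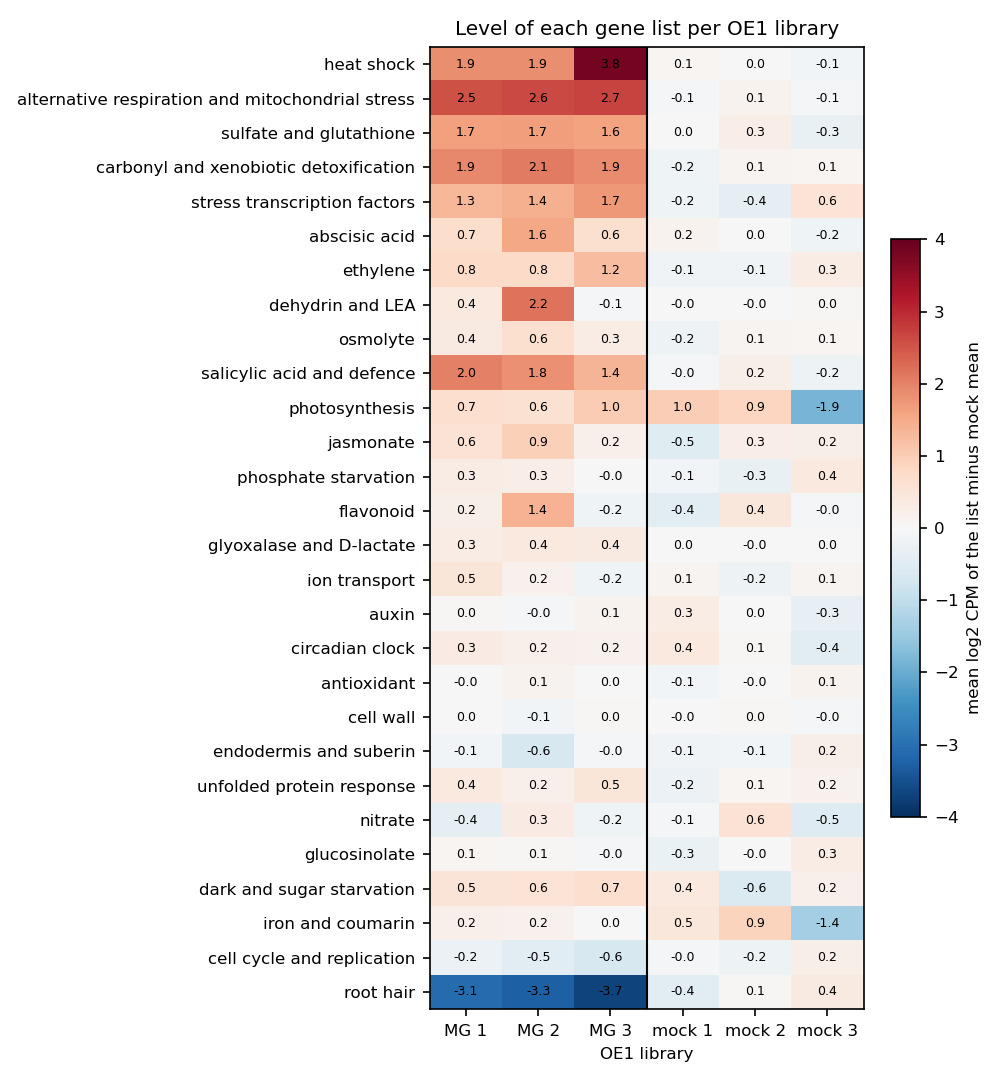
Mean log2 CPM of each gene list in the 6 OE1 libraries minus the mean over the 3 mock libraries, with MG libraries on the left, from blue (lower) to red (higher). Sulfate, detoxification and alternative respiration genes are even across the MG libraries, heat shock genes peak in MG replicate 3 at 3.82 and dehydrin genes in MG replicate 2 at 2.17, and mock replicate 3 stands at −1.85 for photosynthesis genes.

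Root hair genes fell more than any other list. Of 13 tested 10 fell and none rose, against 3.94% of all genes lowered, with a median of −4.75, or −4.24 with RSL1 and RSL2, which had no MG read, at their bounds. Without mock replicate 3, 9 fell and 1 rose, and the counts were the same without all 7 libraries low in CCA1. RSL2, a basic helix-loop-helix factor of hair growth, had no read in MG libraries and 1.06, 0.883 and 1.82 CPM in mock libraries, so it was at least 24.5-fold lower. PRP3, a cell wall protein gene of root hairs, stood at 0.774, 0.160 and 1.05 CPM in MG libraries, against 29.2, 72.1 and 89.7 CPM in mock libraries (−6.59 ± 0.73, adjusted p = 1.93e-07). EXPA18, a root hair expansin gene, stood at 0.155, 0.107 and 0.116 CPM in MG libraries, against 13.9, 15.7 and 15.02 CPM in mock libraries (−6.81 ± 0.81, adjusted p = 3.60e-07). COBL9, which acts in hair tip growth, stood at 0.361, 0.374 and 0.0582 CPM in MG libraries, against 4.68, 12.1 and 12.1 CPM in mock libraries (−5.13 ± 0.60, adjusted p = 2.44e-07). In each of these the highest MG value was several times below the lowest mock value.

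The wall genes XTH14 (−4.80 ± 0.58, adjusted p = 4.52e-07), LRX1 (−5.33 ± 0.71, adjusted p = 2.23e-06), EXPA7 (−4.24 ± 0.65, adjusted p = 1.89e-05), RHS10 (−1.999 ± 0.33, adjusted p = 5.83e-05) and PRX44 (−2.81 ± 0.45, adjusted p = 3.58e-05) fell as well. RSL4, a factor that sets hair length, fell (−2.45 ± 0.75, adjusted p = 0.0339), a call lost without mock replicate 1 (adjusted p = 0.0556) or 3 (0.156) or MG replicate 2 (0.164) or 3 (0.171). The other 3 listed genes did not pass. RHD2, the NADPH oxidase gene of growing hairs, stood at 12.7, 11.8 and 8.15 CPM in MG libraries, against 3.79, 4.06 and 10.1 CPM in mock libraries (0.85 ± 0.40, adjusted p = 0.239), and was the listed gene whose values went the other way. RHD6, which acts early in hair fate, stood at 0.413, 0.588 and 0.233 CPM in MG libraries, against 0.557, 0.824 and 1.19 CPM in mock libraries (−1.06 ± 0.41, adjusted p = 0.122), and RSL1 had 9 mock reads and no MG read.

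Several of the 15 genes with the largest falls by the naming rule encode wall proteins. The extensin genes EXT10 (0.206, 0.160 and 0.349 CPM in MG libraries, against 22.8, 103 and 68.2 CPM in mock libraries), EXT13 (−7.15 ± 0.80, adjusted p = 2.33e-07) and EXT6 (−8.10 ± 1.01, adjusted p = 8.45e-07) and the hydroxyproline-rich HRGP1 (−7.36 ± 0.74, adjusted p = 1.76e-08) were among them. Extensin genes share repeats, so reads of near-identical copies can be split and their single values are uncertain. AGP3, an arabinogalactan protein gene (−7.27 ± 0.70, adjusted p = 8.20e-09), RHS19, annotated as root hair specific 19 (−6.89 ± 0.57, adjusted p = 6.26e-10), AT5G04960 (−6.996 ± 0.66, adjusted p = 6.91e-09), AT5G46900 (−6.87 ± 0.65, adjusted p = 5.86e-09), AT1G19900 (−6.67 ± 0.60, adjusted p = 2.74e-09) and AT4G08400 (−7.35 ± 0.85, adjusted p = 3.75e-07) fell too. AT4G08410 had 2 MG counts in all (ratio of mock to MG 436, 95% interval 120 to 3608), AT2G39040 had 1 (395, 70.5 to 15639), PRP1 had 3 (255, 86.9 to 1238) and AT4G25250 had 3 (120, 40.9 to 586), counting error only. For all 15 the groups did not overlap, as the rule required, and all kept their calls in every alternative.

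Endodermis genes changed in both directions. Among Casparian strip genes, CASP1 fell to 11.1, 6.09 and 14.7 CPM in MG libraries, against 31.8, 40.3 and 40.7 CPM in mock libraries (−1.82 ± 0.34, adjusted p = 0.000319). CASP4 (−1.93 ± 0.40, adjusted p = 0.000911), CASP2 (−1.44 ± 0.41, adjusted p = 0.0202) and CASP5 (−1.64 ± 0.52, adjusted p = 0.0393) fell with it, as did the peroxidase gene PER64 of the same structure (−2.09 ± 0.37, adjusted p = 0.000163). Among suberin synthesis genes, GPAT5 rose to 28.6, 44.5 and 51.4 CPM in MG libraries, against 9.92, 12.0 and 10.7 CPM in mock libraries (1.93 ± 0.31, adjusted p = 3.83e-05), along with CYP86B1 (1.6001 ± 0.25, adjusted p = 3.13e-05), FAR4 (1.30 ± 0.36, adjusted p = 0.0153) and CYP86A1 (1.15 ± 0.36, adjusted p = 0.0415). In all, 6 of 13 listed genes fell and 4 rose, against 3.94% of all genes lowered and 5.85% raised. ESB1, which acts in Casparian strip formation (−0.17 ± 0.35, adjusted p = 0.917), MYB36, which directs it (0.21 ± 0.58, adjusted p = 0.911), and KCS2, a suberin synthesis gene (1.13 ± 0.46, adjusted p = 0.145), did not pass. Without MG replicate 2, the lowest for the CASP genes, 3 fell (CASP2 0.155 and CASP5 0.209 were among those lost), and without mock replicate 3, 4 fell (CASP2 0.211 and CASP5 0.147 were lost). CASP5 also lost its call without mock replicate 1 (0.0975) or MG replicate 3 (0.119). Without mock replicate 1 or 2 the count that rose was 2 (FAR4 0.0912 and 0.0970, CYP86A1 0.113 and 0.0559). CYP86A1 lost its call without any other single library as well (0.0525 to 0.169), mock replicate 3 giving the highest.

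Iron genes moved in both directions, and mock replicate 3 was far below the other mock libraries for several. F6H1, which makes the coumarin scopoletin, stood at 185, 181 and 118 CPM in MG libraries, against 21.5, 16.5 and 23.5 CPM in mock libraries and rose (2.97 ± 0.30, adjusted p = 1.82e-08). FRO2, the root ferric reductase gene, stood at 1.24, 0.748 and 1.05 CPM in MG libraries, against 27.0, 38.3 and 0.713 CPM in mock libraries, so that mock replicate 3 lay below the MG range (−4.43 ± 1.17, adjusted p = 0.0105). IRT1, the root iron transporter gene, stood at 3.25, 1.01 and 0.698 CPM in MG libraries, against 59.6, 61.9 and 0.0792 CPM in mock libraries and did not pass (−4.59 ± 1.71, adjusted p = 0.1). Of 19 genes F6H1 rose and FRO2, NAS1 (−0.98 ± 0.26, adjusted p = 0.0128) and FER1 (−1.54 ± 0.50, adjusted p = 0.0456) fell. A single rise among 19 is near the 5.85% of all genes raised, and 3.94% of all genes fell. None of the 3 falls passed without MG replicate 3 (adjusted p = 0.0505, 0.101 and 0.200) or without mock replicate 2 (0.0502, 0.151 and 0.0839), and NAS1 alone did without MG replicate 2, where FRO2 had 0.0604. FER1 lost its call without any one library, with adjusted p up to 0.200 (MG replicate 3). Without mock replicate 3 the count of falls was 5, and without all 7 libraries low in CCA1 it was 7.

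In 6 other lists, for ion transport, phosphate, nitrate, auxin, cell wall and cell cycle, 9 of 83 genes passed (10.8%), near the 9.79% of all genes. The calcium exchanger gene CAX3 rose (1.34 ± 0.32, adjusted p = 0.00404), 1 of 10 ion transport genes. The phosphate exporter gene PHO1 fell (−1.45 ± 0.29, adjusted p = 0.000627) and PHF1 rose (0.72 ± 0.15, adjusted p = 0.000765), of 11 phosphate starvation genes, and none of 6 listed nitrate genes passed. The nitrate transporter gene NRT1.5, which was not listed, fell (−2.18). Of 22 auxin genes the carrier genes LAX3 (−0.85 ± 0.14, adjusted p = 5.75e-05) and PIN2 (−1.42 ± 0.42, adjusted p = 0.0252) and the synthesis gene YUC3 (−2.49 ± 0.55, adjusted p = 0.00212) fell, and YUC9 rose (1.21 ± 0.32, adjusted p = 0.0116). PIN2 lost its call without mock replicate 2 (adjusted p = 0.215) or MG replicate 1 (0.0879) or 3 (0.166), and YUC9 without MG replicate 3 (0.0527). Of 15 general cell wall genes XTH17 fell (−2.22 ± 0.44, adjusted p = 0.000563) and XTH23 rose (1.57 ± 0.36, adjusted p = 0.00298). None of 19 listed cell cycle and replication genes passed (median −0.49), though 5 were lower at unadjusted p under 0.05. DESeq2 and RLE scaling each called 1 lower, and the replicate block and the fit without the 7 libraries low in CCA1 called 2. The list does not cover every such gene, and outside it WEE1 (−0.96) and PSF1 (−1.18) fell.

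Photosynthesis and clock genes did not pass. None of 22 photosynthesis genes was called, with values between −0.40 and 0.62 (median 0.36, and −0.10 without mock replicate 3), and none had an unadjusted p under 0.05 or a call in DESeq2. None of 16 clock genes was called (median 0.01), 3 had an unadjusted p under 0.05, and DESeq2 called 1 lower. Without mock replicate 2, 1 clock gene rose. LHY stood at 98.1, 106 and 82.0 CPM in MG libraries, against 106, 80.4 and 5.63 CPM in mock libraries, and TOC1 at 25.4, 22.8 and 25.7 CPM, against 25.8, 22.8 and 69.8 CPM, so the gap lay between mock replicate 3 and all other libraries.

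The response of OE1 was set against that of WT, which shares no library with it. Of the 2031 genes called in OE1, 1654 were also called in WT in the same direction, which is 81.4% of the OE1 genes and 74.7% of the 2215 WT genes, and none was called in the opposite direction. The difference between the responses was tested as an interaction for all genes, and 1 of 20748 (0.00482%) passed, GLYII4. At unadjusted p under 0.05 there were 207 genes. DESeq2 and each other alternative run called the same gene and no other. In WT CYP71A12 changed by 8.72, GSTU25 by 4.87, AOX1A by 2.89, LSU1 by 5.46, HSFA2 by 5.66 and COBL9 by −5.65 on the log2 scale. For the same genes OE1 had 8.73, 4.53, 3.31, 6.09, 5.14 and −5.13.

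Between OE1 and OE5, the second line with the same label, no gene (0%) differed in its MG response, in edgeR, DESeq2 or any alternative. Before adjustment, edgeR gave 105 genes a p under 0.05 and DESeq2 gave 119. In OE5 1831 genes were called, and 1555 of them were called in OE1 in the same direction, which is 84.9% of the OE5 and 76.6% of the OE1 genes. A p that misses the threshold does not show that the lines respond alike. Recovery was simulated only for OE1 MG against mock, where 43% of 2-fold and 92% of 4-fold changes were recovered. It was not simulated for a difference between lines, so these shares do not apply to it.

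Against glyI2, the mutant of glyoxalase I, the OE1 response differed for 511 genes (2.46%), of which 171 differences were higher in OE1 and 340 lower. In glyI2 6056 genes were called after MG. Of the 2031 genes called in OE1 1729 (85.1%) were called in glyI2 in the same direction, which is 28.6% of the glyI2 genes, and 25 were called in the opposite direction. Of the 511 genes 212 were called in OE1. Among these 105 rose in both and rose more in glyI2, 25 rose in OE1 and were not called in glyI2, and 36 fell in both and fell more in glyI2.

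The mitochondrial stress genes were among those with the larger rise in glyI2, where 5 of the 11 listed genes differed, against 2.46% of all genes. NDB4 stood at 6.14, 6.52 and 3.201 CPM in OE1 MG libraries, against 0.167, 0.412 and 0.634 CPM in OE1 mock libraries. In glyI2 it stood at 75.9, 67.6 and 62.3 CPM after MG, against 0.0547, 0.134 and 0.349 CPM in mock, and the responses differed by −4.81 ± 0.70, adjusted p = 9.01e-05. OM66 reached 235, 264 and 276 CPM after MG in glyI2, against 27.2, 21.5 and 24.3 CPM in OE1, and the responses differed by −3.03 ± 0.63, adjusted p = 0.00554. ANAC013 differed by −2.03 ± 0.35, adjusted p = 0.000785, UPOX by −2.72 ± 0.63, adjusted p = 0.0136 and NDB2 by −1.22 ± 0.34, adjusted p = 0.0498. The UPOX difference was lost without OE1 mock replicate 3 (adjusted p = 0.0771), OE1 MG replicate 1 (0.0540) or glyI2 mock replicate 1 (0.0534). That of NDB2 was lost without any single library but OE1 mock replicate 1 or glyI2 mock replicate 1, with adjusted p up to 0.164 (OE1 mock replicate 2). CBP60G stood at 94.6, 87.3 and 75.2 CPM after MG in glyI2, against 19.9, 23.5 and 16.3 CPM in OE1, from like mock levels. Its responses differed by −2.54 ± 0.42, adjusted p = 0.000464. MDAR3 stood at 46.7, 26.1 and 29.7 CPM after MG in glyI2, against 18.0, 8.58 and 12.2 CPM in glyI2 mock. In OE1 it fell (−1.34, adjusted p = 0.00346), and the responses differed by −2.74 ± 0.44 (adjusted p = 0.000282).

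A smaller group rose in OE1 and not in glyI2. CYP94B3 stood at 3.45, 5.86 and 3.04 CPM after MG in glyI2, against 2.35, 1.07 and 2.44 CPM in glyI2 mock. The OE1 MG libraries had 69.5, 108 and 128 CPM, and the responses differed by 4.93 ± 0.58 (adjusted p = 3.57e-06). F6H1 stood at 28.0, 20.4 and 12.9 CPM after MG in glyI2, against 20.9, 21.3 and 18.5 CPM in glyI2 mock. It rose several times over in OE1, and the responses differed by 2.96 ± 0.40 (adjusted p = 3.00e-05). GLP4, annotated as germin-like protein 4, stood at 45.1, 58.7 and 19.6 CPM in OE1 MG libraries, against 11.9, 11.7 and 7.61 CPM in OE1 mock libraries. In glyI2 it stood at 0.991, 0.273 and 0.361 CPM after MG, against 14.3, 7.95 and 6.28 CPM in mock. The directions were thus opposite, and the responses differed by 6.12 ± 0.74 (adjusted p = 6.24e-06). TGA10, a bZIP transcription factor gene, stood at 2.84, 2.77 and 2.203 CPM after MG in glyI2, against 7.005, 4.96 and 6.39 CPM in glyI2 mock. In OE1 it rose (1.35, adjusted p = 1.23e-05), and the responses differed by 2.58 ± 0.29 (adjusted p = 2.09e-06). These 4 differences held without each single library in turn. In WT the 4 genes changed by 5.79, 2.98, 1.80 and 1.00 on the log2 scale, beside the OE1 values of 6.01, 2.97, 1.99 and 1.35.

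**Figure D5:**
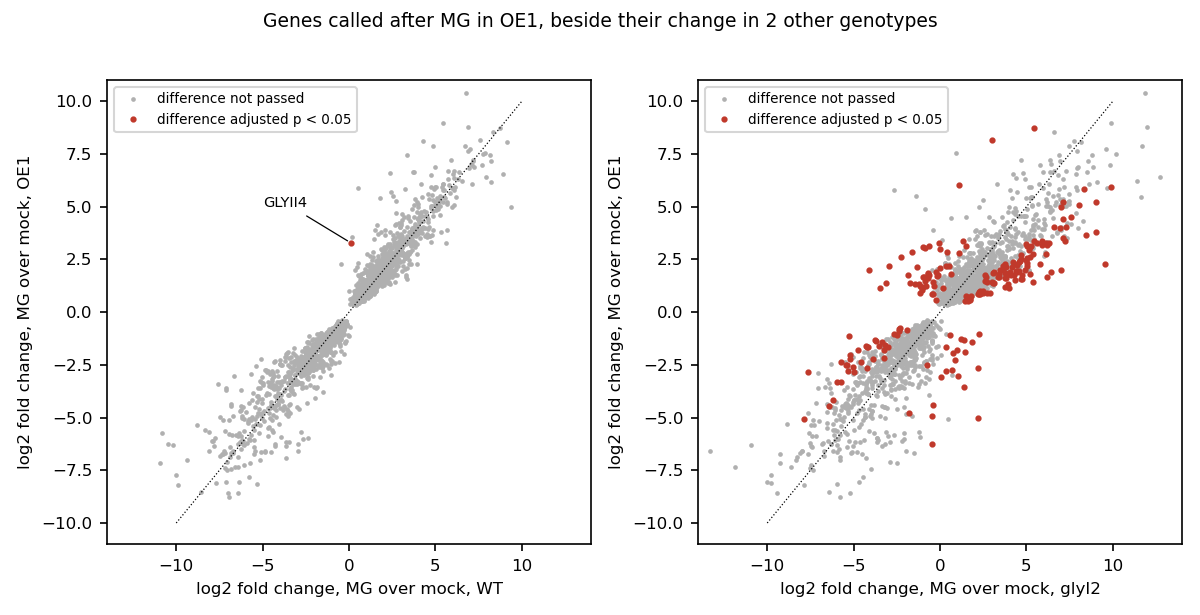
Log2 fold change of MG over mock in OE1 (vertical) against that in WT (left, horizontal) and glyI2 (right, horizontal) for the 2031 genes called in OE1, with genes whose responses differed at adjusted p under 0.05 in red and a dotted line of equal change. On the left the red point is GLYII4, and on the right the red points are the 212 called in OE1 among the 511 genes that differed.

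The NaCl response of OE1 shares its mock libraries with the MG response, so the values are only set side by side. Of 20748 genes tested, 1214 rose and 817 fell after MG in OE1, and 618 rose and 487 fell after NaCl. The list counts below thus stand beside fewer calls over all genes after NaCl than after MG. Root hair genes had 10 of 13 called after MG (median −4.75) and 0 of 13 after NaCl (median −0.41). Heat shock genes had 18 of 24 raised after MG and 2 of 24 after NaCl (median 0.97). Dehydrin and LEA genes had 2 of 12 raised after MG (median 0.79) and 9 of 12 after NaCl (median 3.69).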

How the data were processed

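Poly(A) RNA of whole seedlings was sequenced on a BGISEQ-500, per the labels' protocols. The submitters' processing notes name HISAT2 2.0.4, HTSeq and TAIR10. The authors deposited, for each library, raw counts and FPKM per gene. No source used here says if strand was counted, and reads of antisense or overlapping genes cannot be told apart. The 32678 genes include 279 organelle genes, all at 0. Names came from a reference table that matched 31912 identifiers.

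Counts were tested with edgeR 4.0.16 (R 4.3.3), by the robust quasi-likelihood test with TMM scaling, after its filter on low counts, over all 36 libraries in 12 groups, with Benjamini-Hochberg adjustment over 20748 genes. Differences between responses were interaction terms of that fit. The deposited FPKM served only to compare levels between genes. Alternatives were RLE scaling, no filter, a replicate block, the compared groups alone, DESeq2 1.42.0 and leaving out each library. Leaving out the 7 libraries low in CCA1 was chosen after seeing the data.

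The comparison and the 28 gene lists (439 genes, 429 tested) were chosen with earlier results of these data known. Named by rule were the 15 genes with the largest called change per direction (average log2 CPM of at least 1, no overlap), up to 4 called members per list, every member of the glyoxalase list and 5 differences per direction. That average was taken over all 36 libraries, so a gene can reach it through libraries outside the comparison. Other genes were named after their values were seen. One listed gene is counted in its list but not reported here. Nothing says that replicates came from separate plantings, and the p-values reflect only differences among these libraries, perhaps technical ones. Counting intervals and floors cover counting error only. In simulated counts for OE1 MG against mock (20653 genes), 43% of 100 genes changed 2-fold and 92% of 100 changed 4-fold were recovered, with 5 calls among unchanged genes. The changed genes were drawn from those with average log2 CPM above 1, so the shares do not cover genes at lower levels. Fewer genes were changed than were called in the data.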

Additional observations from a re-analysis of the deposited data

Results flagged for a closer look

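Differences in the MG response between OE1 and another genotype were tested as interactions, and those of genes named by the rule are given as OE1 minus the other genotype on the log2 scale. Against WT the response of GLYII4 was higher in OE1 by 3.15. Against glyI2 it was higher in OE1 by 3.35 for GLYII4, by 6.12 for GLP4, by 5.13 for AT4G04990, by 5.12 for AT1G26390, by 5.03 for GRP9 (glycine-rich protein 9) and by 4.99 for AT4G30320. It was also higher for CYP94B3 (4.93), CYP71A12 (3.29), F6H1 (2.96), TGA10 (2.58), YUC9 (2.19), CYP707A1 (1.71) and LAX3 (1.09). The response was lower in OE1 than in glyI2 for AT1G74870 (−5.27), AT3G46080 (−5.22), AT2G44578 (−4.9998), NDB4 (−4.81), MDAR3 (−2.74), ACS2 (−2.71), CBP60G (−2.54), ACS6 (−2.50), ANAC013 (−2.03), UGT74E2 (−1.99), CYP81D8 (−1.86) and BZIP60 (−1.59). The ribosomal RNA gene AT2G01010 had a fitted difference of −23.62, which is no bound, as no glyI2 mock library held a read. Its counts were 3, 3 and 4 in OE1 MG, 0, 4408 and 3 in OE1 mock and 0, 9127 and 2976 in glyI2 MG. Its call was lost without OE1 mock replicate 2 (adjusted p = 0.782, edgeR's quasi-likelihood test) and in 10 other alternatives. The difference was lost without OE1 mock replicate 3 for ACS2 (0.102), ACS6 (0.192), CYP71A12 (0.0938), UGT74E2 (0.114) and AT1G26390 (0.0771), and without glyI2 mock replicate 1 it had an adjusted p of 0.324 for AT1G26390 and 0.140 for CYP71A12. Those of CYP707A1, CYP81D8 and BZIP60 were each lost without at least one single library, among them OE1 MG replicate 2 (0.0705, 0.0711 and 0.0615).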

How the results depend on the processing

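The 2031 genes called in OE1 were 1992 with RLE scaling, 1957 without a filter, 1573 with the compared groups alone, 2217 with DESeq2 and 1884 without the 7 libraries low in CCA1, a setting chosen after seeing the data. With single libraries left out the count lay between 1616 and 1881, that of genes higher between 962 and 1071, that of genes lower between 615 and 835 and that of genes changed at least 2-fold between 1386 and 1515. The count of differences from WT was 1 and from OE5 0 in every alternative. For glyI2 the 511 differences became 790 with the replicate block (509 of the 511 shared) and 816 with DESeq2 (508 shared), and lay between 346 and 505 with single libraries left out. The cause was not tested. The replicate numbers did not pair the libraries: deviations of same-numbered MG and mock libraries correlated at −0.07, 0.31 and −0.15, and 1 of 3 correlated best with its own number. With the replicate block 2562 genes were called in OE1, 2028 of the 2031 among them. No called gene changed direction among those named by rule. List medians did: photosynthesis stood at −0.10 without mock replicate 3 (0.36 with all), endodermis at 0.11 without mock replicate 1 (−0.17) and dehydrins at −0.01 without MG replicate 2 (0.79). Of 101 called genes named by rule 82 kept the call in every alternative and 19 did not, and of 154 called genes named by rule or listed 114 did and 40 did not. The 3 libraries per group limit the precision, and single reads decide genes near 0.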
